A study of Mus musculus with 12 samples.

Results

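Ribonuclease P (RNase P) and other small structured RNAs were followed through an RNA-seq table of mouse embryonic stem cells (ESC). The list names 10 genes: Rpph1, Rprl1, Rprl2, Rprl3, Rmrp, Rn7sk, Vaultrc5, Rny1, Rny3 and Terc. Members were found by gene symbol, and 7 of the 10 had rows that were analysed here, among 19716 genes. The other 3, Rn7sk, Rny1 and Rny3, were not analysed here. Of the 7, 6 reached a mean of at least 1 RPKM (a read number divided by transcript length and by library depth) in at least 1 group and so entered the tests over 10197 genes. Rprl1 did not, and Vaultrc5 passed only through its values in the columns with doxycycline (dox). The genes were put on the list with these measurements in view, so their levels and differences are given as a description, with standard errors (SE) and no p-value.

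The cells hold a transgene for HA-Flag-AGO2, an Argonaute protein that works with small RNAs, under the control of dox, and the groups differ in whether dox was added (2.5 ug/ml for 15 h before harvest) and in whether nuclear or whole-cell (total) RNA was sequenced after depletion of ribosomal RNA. The 4 columns hold nuclear RNA with dox (nuclear dox), nuclear RNA without (nuclear no dox) and the same pair for whole cells, each column being the authors' mean over its libraries on the scale log2(RPKM + 0.001). The labels list 3 libraries a group, 12 in all, and the authors' p-values fit 10 of them: 3 with and 2 without dox in nuclear RNA, and 2 with and 3 without dox in total RNA. Whether the libraries stem from separate cultures is not in the labels, so errors and p-values measure the spread between these libraries, which may be technical. All cells of the series, with and without dox, are labelled as the transgenic line grown in leukemia inhibitory factor, and no line without the transgene was analysed here.

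The group labels were checked first. Ago2, the gene the transgene encodes, had 2.39 RPKM in nuclear dox and 8.65 RPKM in nuclear no dox, and 3.43 RPKM in total dox and 9.12 RPKM in total no dox. It thus goes against the dox label, and every direction below holds for the columns labelled dox and no dox. All 8 ESC markers were tested, with 5 called higher and 1 lower with dox in nuclear RNA and 6 higher and 1 lower in total RNA, but 1 higher and 5 lower, and 2 higher and 5 lower, after quantile normalization. Pou5f1 had the largest difference (326 RPKM in nuclear dox, 63.2 in nuclear no dox, 375 in total dox, 94.1 in total no dox), Klf4 was not called, and Tdgf1 was lower with dox (23.8 RPKM in nuclear dox, 35.9 in nuclear no dox, 44.1 in total dox, 70.8 in total no dox). None of the 3 fibroblast markers with a row reached 1 RPKM. Of 4 RNAs known to stay in the nucleus, 0 were called higher in nuclear than in total columns, against 5.84% of all tested genes with dox and 4.01% without. Malat1 had 77.3 RPKM in nuclear dox and 140 in total dox, and 467 in nuclear no dox and 633 in total no dox. The log2 difference of nuclear minus total without dox was 0.10 for Kcnq1ot1, -0.07 for Xist and -0.14 for Neat1. With dox it was -0.16, -0.74 and -0.70. Quantile normalization gave 1 of the 4 higher and 0 lower without dox, and 0 higher and 1 lower with dox. Depth also followed the dox label, with 10.3 to 11.8 M reads in the 5 dox libraries and 15.3 to 18.9 M reads in the 5 no-dox libraries. The part of depth in the results was not tested.

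RNase P is the ribonucleoprotein enzyme that cuts the leader off precursor transfer RNAs, and its catalytic RNA subunit is Rpph1. RNase MRP, built on the related RNA Rmrp, shares most protein subunits with RNase P and takes part in ribosomal RNA maturation. The other listed RNAs work in complexes of their own: 7SK RNA (Rn7sk) holds the elongation kinase P-TEFb inactive, vault RNA (Vaultrc5) is part of the large vault particle, Y RNAs (Rny1 and Rny3) bind the Ro protein, and Terc carries the template of telomerase. Rpph1, Rmrp, 7SK, vault and Y RNAs are made by RNA polymerase III, while Terc is made by RNA polymerase II. Rprl1, Rprl2 and Rprl3 are annotated by RefSeq as further genes of RNase P RNA.

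The results below turn on how far reads of Rpph1 and its 3 copies can be told apart, so the stretches that pair are shown from the first base of each gene as GENCODE annotates it on the GRCm38 (mm10) build, 5′ to 3′. The stretch of Rpph1 lies on chr14:50807513-50807767 (minus strand). Capitals in Rpph1 mark 21 bases, positions 182 to 202, that are absent from the other 3 genes and that repeat directly afterwards. That of Rprl3 lies on chr8:3803125-3803358 (minus strand), Rprl2 on chr3:22251374-22251607 (plus strand) and Rprl1 on chr6:69326937-69327170 (minus strand). Capitals in these 3 mark each base that differs from Rpph1.
Rpph1: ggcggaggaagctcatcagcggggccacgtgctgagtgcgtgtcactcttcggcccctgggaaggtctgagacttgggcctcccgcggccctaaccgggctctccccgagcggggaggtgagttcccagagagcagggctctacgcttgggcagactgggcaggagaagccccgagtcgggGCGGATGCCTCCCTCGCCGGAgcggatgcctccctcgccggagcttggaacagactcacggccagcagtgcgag
Rprl3: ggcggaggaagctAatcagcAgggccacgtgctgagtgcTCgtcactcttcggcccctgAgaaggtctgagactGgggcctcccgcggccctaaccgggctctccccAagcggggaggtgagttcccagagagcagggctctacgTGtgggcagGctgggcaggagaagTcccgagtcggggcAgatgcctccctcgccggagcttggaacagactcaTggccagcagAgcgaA
Rprl2: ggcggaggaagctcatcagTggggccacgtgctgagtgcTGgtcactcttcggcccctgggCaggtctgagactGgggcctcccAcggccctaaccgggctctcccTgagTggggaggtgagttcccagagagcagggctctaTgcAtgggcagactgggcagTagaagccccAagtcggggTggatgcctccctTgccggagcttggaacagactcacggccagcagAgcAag
Rprl1: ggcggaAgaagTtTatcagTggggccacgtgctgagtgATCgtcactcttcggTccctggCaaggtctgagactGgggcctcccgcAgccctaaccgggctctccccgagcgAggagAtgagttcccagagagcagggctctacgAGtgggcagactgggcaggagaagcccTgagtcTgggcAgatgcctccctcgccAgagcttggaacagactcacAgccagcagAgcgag

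Each copy pairs 234 bases with Rpph1. Of these 219 were identical in Rprl3 (93.6%), 218 in Rprl2 (93.2%) and 213 in Rprl1 (91.0%). The differences are scattered, so that no stretch of 50 bases of the annotated Rpph1 occurs unchanged in Rprl3, while 54 of its 270 stretches of that length occur there with at most 2 mismatches. At 36 bases 2 of 284 stretches were shared without a mismatch and 121 with at most 2. Read length and the treatment of reads that map to several places are not given in the sources used here. Levels of Rprl3, Rprl2 and Rprl1 are therefore uncertain, because reads of Rpph1 or of another copy could have been counted at them or the reverse.

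Rpph1 was among the most abundant RNAs of the table and stood far higher in the dox columns. Its authors' means were 32210 RPKM in nuclear dox and 1624 RPKM in nuclear no dox. In total RNA they were 29600 RPKM in total dox and 1385 RPKM in total no dox. Both dox columns thus lay above both no-dox columns, by 19.8-fold in nuclear RNA (log2 4.31, SE 0.13) and 21.4-fold in total RNA (log2 4.42, SE 0.13). The residual standard deviation (SD) between libraries, recovered from the authors' p-values and pooled over the groups, was 0.12 on the log2 scale, so the difference was many times the spread between libraries. In bulk RNA, a change in the number of cells that hold an RNA and a change in its amount per cell cannot be told apart.

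Rpph1 took 1.05% of mapped reads in nuclear dox and 0.0528% in nuclear no dox, and 0.962% in total dox and 0.045% in total no dox. With the recovered depths this is about 113000 reads a library in nuclear dox, 9060 in nuclear no dox, 109000 in total dox and 7200 in total no dox. Counting error was therefore small beside the spread between libraries. By RPKM it ranked 2 of the tested genes in both dox columns, 4 in nuclear no dox and 5 in total no dox. Its level differed by less than 2 SE between nuclear dox and total dox (log2 0.12, SE 0.13) and between nuclear no dox and total no dox (log2 0.23, SE 0.13). Rn45s, the precursor of ribosomal RNA, still had 66590 RPKM in nuclear dox and 65940 in nuclear no dox. In total RNA it had 61020 RPKM in total dox and 57960 in total no dox. Mapped reads thus include ribosomal reads, and their part in the read shares was not worked out.

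Rprl3, the copy with the most reads, followed the same pattern at a lower level. It had 4387 RPKM in nuclear dox and 371.7 RPKM in nuclear no dox, an 11.8-fold difference (log2 3.56, SE 0.18). In total RNA it had 4201 RPKM in total dox and 263.5 RPKM in total no dox, a 15.9-fold difference (log2 3.99, SE 0.18). Set against Rpph1 per length, Rprl3 stood at 13.6% of it in nuclear dox and 22.9% in nuclear no dox, and at 14.2% in total dox and 19.0% in total no dox. By these means the share of Rprl3 was lower in both dox columns, but no error was worked out for it.

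Rprl2 was far less abundant, with 71.2 RPKM in nuclear dox and 5.29 in nuclear no dox, and 72.3 in total dox and 5.87 in total no dox. It was 13.5-fold higher with dox in nuclear RNA (log2 3.75, SE 0.19) and 12.3-fold in total RNA (log2 3.62, SE 0.19). Relative to Rprl3 it stood at 1.62% in nuclear dox and 1.42% in nuclear no dox, and at 1.72% in total dox and 2.23% in total no dox. Of the 270 stretches of 50 bases of Rpph1, 12 occur in Rprl2 with at most 2 mismatches, against the 54 in Rprl3. Rprl2 shares more with Rprl3: of 241 such stretches of Rprl2, 7 occur in Rprl3 unchanged and 22 with at most 2 mismatches. Reads of the far more abundant Rprl3 could thus also have been counted at Rprl2, which was not tested.

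Rprl1 rested on single reads. A search for whole read numbers that give the authors' means returned 1, 2 and 3 reads in the nuclear dox libraries and 0 and 1 in the nuclear no-dox libraries. In total RNA it returned 1 and 3 reads in total dox and 0, 0 and 1 in total no dox. Summed and divided by depth, the ratio of dox to no dox was 6.39 in nuclear RNA (95% exact interval 0.775 to 294) and 8.45 in total RNA (0.836 to 416). Both intervals, which cover counting error only, include 1, so no difference was detectable at this depth.

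Rmrp, the RNA of RNase MRP, was as abundant as Rpph1 with dox and differed far less between columns. Its means were 31370 RPKM in nuclear dox and 19800 RPKM in nuclear no dox, 1.58-fold apart (log2 0.66, SE 0.15). In total RNA they were 25520 RPKM in total dox and 17920 RPKM in total no dox, 1.42-fold apart (log2 0.51, SE 0.15). Rmrp was thus higher in both dox columns as deposited. It differed by less than 2 SE from the median of genes of like length (log2 -0.21 and 0.00 to 2 decimals), so the direction depends on the reference. Quantile normalization of the columns, which gives each gene the mean value of its rank, gave log2 -1.68 in both fractions. That value is the step between ranks 2 and 3 and does not measure the amount of Rmrp. By RPKM it ranked 3 in both dox columns and 2 in both no-dox columns.

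The ratio of the RNase P RNA to the RNase MRP RNA shows the contrast between these relatives without a scaling of the columns. Rpph1 stood at 1.03 times the RPKM of Rmrp in nuclear dox and 0.082 times in nuclear no dox. In total RNA it stood at 1.16 times in total dox and 0.0773 times in total no dox. About 93100 reads a library lay on Rmrp in nuclear dox and 93500 in nuclear no dox, so the ratio rests on large numbers throughout.

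**Figure D1:**
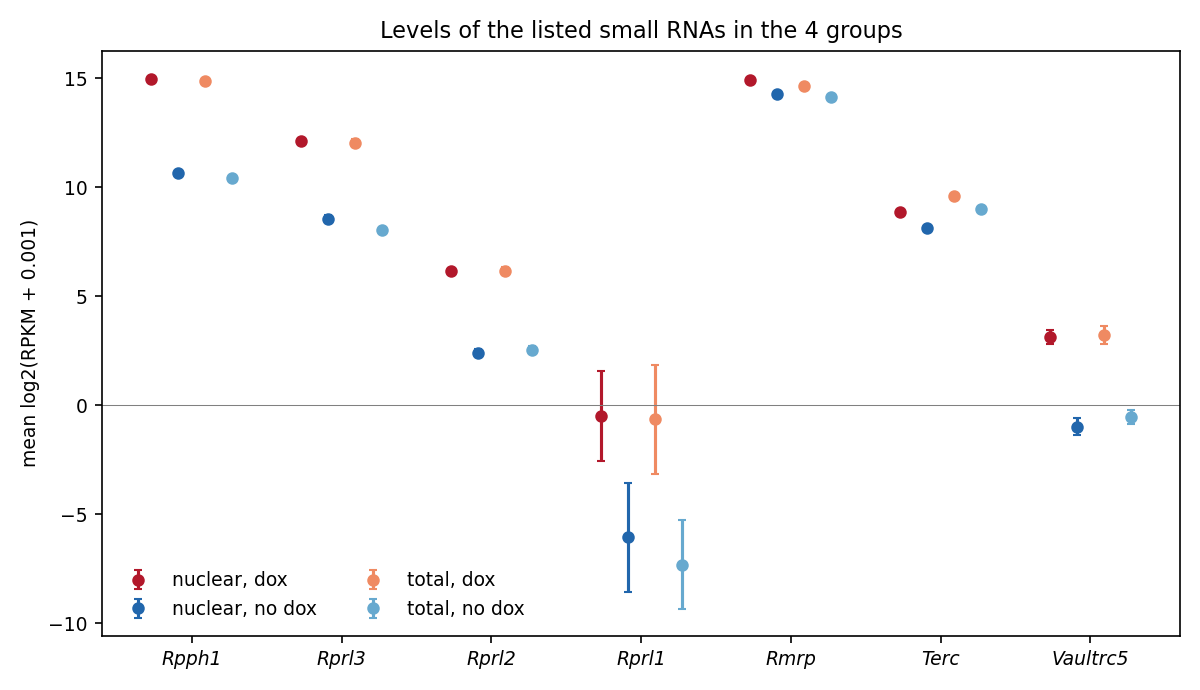
Levels of the 7 RNAs with values, as the authors' group means on the log2(RPKM + 0.001) scale (vertical axis), in nuclear RNA with and without dox and in total RNA with and without dox. Bars are the residual SD recovered from the authors' p-values divided by the square root of the number of libraries. The dox points of Rpph1, Rprl3, Rprl2 and Vaultrc5 lie far above their no-dox points, those of Rmrp and Terc close to them, and the bars of Rprl1 span several log2 units.

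Terc is the telomerase RNA, and its template lies near the 5′ end. The first 60 bases as GENCODE annotates them (chr3:96414800-96414859, minus strand, GRCm38) are shown to place it, with capitals for positions 28 to 36, 9 bases that match the repeated telomere unit CCCTAA.
Terc: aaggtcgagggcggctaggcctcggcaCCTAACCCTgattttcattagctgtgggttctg

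Terc had 461 RPKM in nuclear dox and 277.3 RPKM in nuclear no dox, 1.66-fold apart (log2 0.73, SE 0.12). It had 765.7 RPKM in total dox and 519.2 RPKM in total no dox, 1.47-fold apart (log2 0.56, SE 0.12). Quantile normalization, which follows rank, turned these directions (log2 -1.42 in nuclear and -1.12 in total RNA). Terc ranked 56 in nuclear dox and 14 in nuclear no dox, and 21 in total dox and 9 in total no dox. Less the median of genes of like length the values were -0.60 and -0.22, the latter within 2 SE. Among the 6 tested members it showed the largest difference between fractions: nuclear columns were lower than total columns by 1.66-fold with dox and 1.87-fold without dox, at an SE of 0.12 on the log2 scale. Nuclear columns stayed lower for Terc under quantile normalization (log2 -0.82 with dox, -0.52 without) and when columns were centred on their medians (-0.36 and -0.58).

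Vaultrc5, a vault RNA, was rare but shared the large difference. It had 8.67 RPKM in nuclear dox and 0.507 RPKM in nuclear no dox, and 9.29 RPKM in total dox and 0.693 RPKM in total no dox. In reads, the nuclear dox libraries held 22 to 45 each and 97 to 101 together, the range over 3 sets of whole numbers that give the deposited means, and the nuclear no-dox libraries held 3 and 3. The total dox libraries held 34 and 39 reads, and the total no-dox libraries 2, 4 and 7. The dox libraries were sequenced less deeply. Vaultrc5 was listed with these values in view and passed the filter only through its dox columns, so its read numbers are a description. The differences were 17.1-fold in nuclear RNA (log2 4.09, SE 0.38) and 13.4-fold in total RNA (log2 3.74, SE 0.38), with a residual SD of 0.57.

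Over both comparisons the 6 tested members thus formed 2 sets: Rpph1, Rprl3, Rprl2 and Vaultrc5, between 11.8-fold and 21.4-fold higher with dox, and Rmrp and Terc, between 1.42-fold and 1.66-fold higher as deposited. Together the 7 RNAs took 2.03% of mapped reads in nuclear dox and 0.617% in nuclear no dox, and 1.79% in total dox and 0.565% in total no dox. For scale, limma called 43.1% of all tested genes higher with dox in nuclear RNA and 26.3% lower, and 41.5% higher in total RNA and 22.8% lower (Benjamini-Hochberg adjusted p below 0.05). A difference of the size of that of Rmrp or Terc was common in the table: among genes ranked by their difference with dox, Rmrp stood at 3769 in nuclear and 4198 in total RNA, and Terc at 3520 and 3994.

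Differences of the larger size were rare over all tested genes. Replication-dependent histone genes, described below, reached up to log2 3.81 in nuclear RNA. In nuclear RNA 47 of 10197 tested genes (0.461%) were more than 10-fold higher with dox, and in total RNA 13 (0.127%). Of the 8 genes past 10-fold in both, 4 were Rpph1, Rprl3, Rprl2 and Vaultrc5, which is a description since they were listed for it. The other 4, LOC110008574, Mir3069, Mir432 and Sap25, had at most 0.00578 RPKM in nuclear no dox and residual SDs of at least 2.13 on the log2 scale, against at most 0.567 for the listed RNAs and a median of 0.199 over tested genes. Rpph1 ranked 16 by the nuclear and 8 by the total difference, Vaultrc5 18 and 10, Rprl2 23 and 11, and Rprl3 30 and 9.

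**Figure D2:**
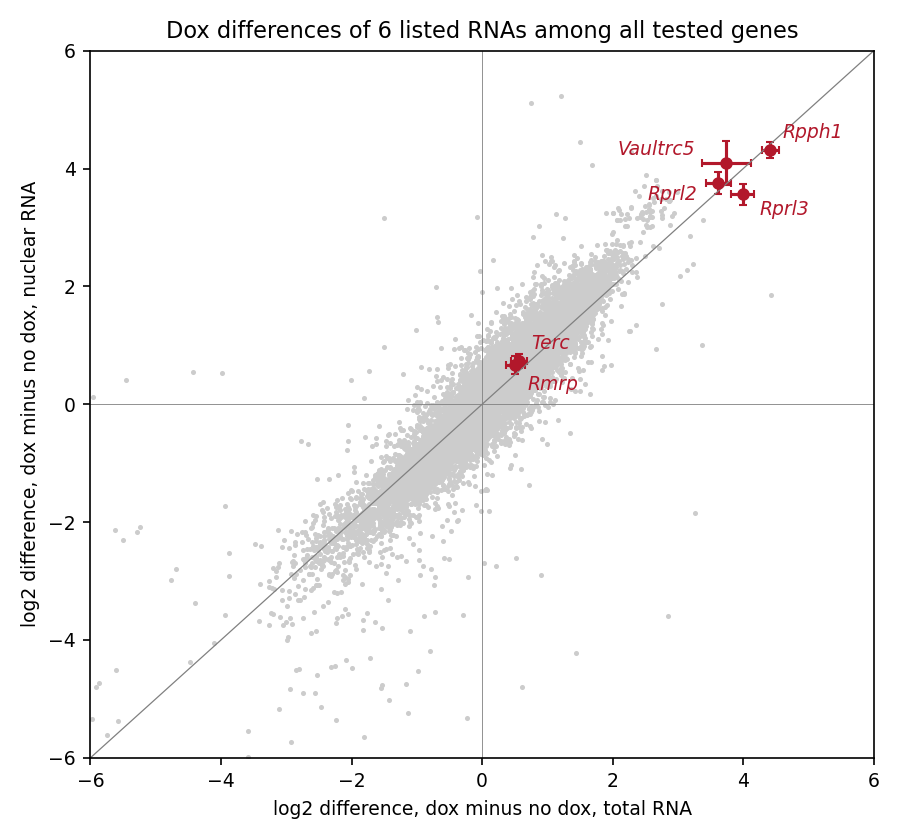
Log2 difference of dox minus no dox in nuclear RNA (vertical axis) against that in total RNA (horizontal axis) for tested genes (grey) and the 6 tested members (red, with limma SE). Axes stop at 6 on the log2 scale, which leaves 72 of 10197 genes outside. Rpph1, Rprl3, Rprl2 and Vaultrc5 lie near the diagonal beyond 3.5 on both axes, and Rmrp and Terc lie within the main cloud.

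All members are short, so each was set beside the 200 tested genes nearest to it in exon length. The median difference with dox of each such set was above that over all tested genes. The 200 genes nearest in length to Rpph1 ran from 136 to 777 bases. Their median log2 difference was 1.21 in nuclear and 0.74 in total RNA, against 0.28 and 0.26 over all tested genes. The set nearest to Rprl3, from 86 to 651 bases, had lower medians of 0.72 and 0.41. Rpph1 exceeded the median of its own set by 3.10 and 3.67, Rprl3 its own by 2.84 and 3.58, Rprl2 by 3.03 and 3.21 and Vaultrc5 by 2.83 and 2.97. Of the 200 genes of like length, 1 was at least as high as Rpph1 in nuclear RNA and 1 in total RNA. These counts were 9 and 0 for Rprl3, 6 and 0 for Rprl2, and 2 and 1 for Vaultrc5. For Rmrp, 112 and 100 of 200 were at least as high, and for Terc 133 and 119. These sets left out members only, so they can hold the replication-dependent histone genes described next. The part of length, or of such histone genes, in the results was not tested further.

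Replication-dependent histone genes, whose messenger RNAs are short and lack a poly(A) tail, were the class nearest to Rpph1. By the distance between the 4 group means, each centred on the gene's own mean over the 4 columns, the 5 nearest genes outside the list were Hist2h4, Hist1h4c, Hist1h2al, Hist1h3i and Hist1h2an, at distances of 1.15 to 1.29 on the log2 scale. Hist2h4 was the closest, 12.1-fold higher with dox in nuclear and 7.93-fold in total RNA. The members Rprl3 (0.617), Vaultrc5 (0.675) and Rprl2 (0.736) lay closer to Rpph1 than these, and Rmrp (3.78) and Terc (3.85) far away. Members were listed with these columns in view, and Rpph1 and its copies may share reads. The distances between members are therefore a description. Over 66 tested histone genes the median log2 difference was 3.25 in nuclear and 2.52 in total RNA, where Rpph1 had 4.31 and 4.42. The highest histone gene had 3.81 in nuclear and 6.07 in total RNA. At least 3.5 was reached by 12 of the 66 in nuclear and 1 in total RNA. Over all tested genes 34 and 11 lay above 3.5. The 5 genes nearest to Rmrp were Psmc3ip, Patz1, Prr3, Coq2 and Lyar, at distances of 0.0554 to 0.0725, and Terc lay at 1.04.

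**Figure D3:**
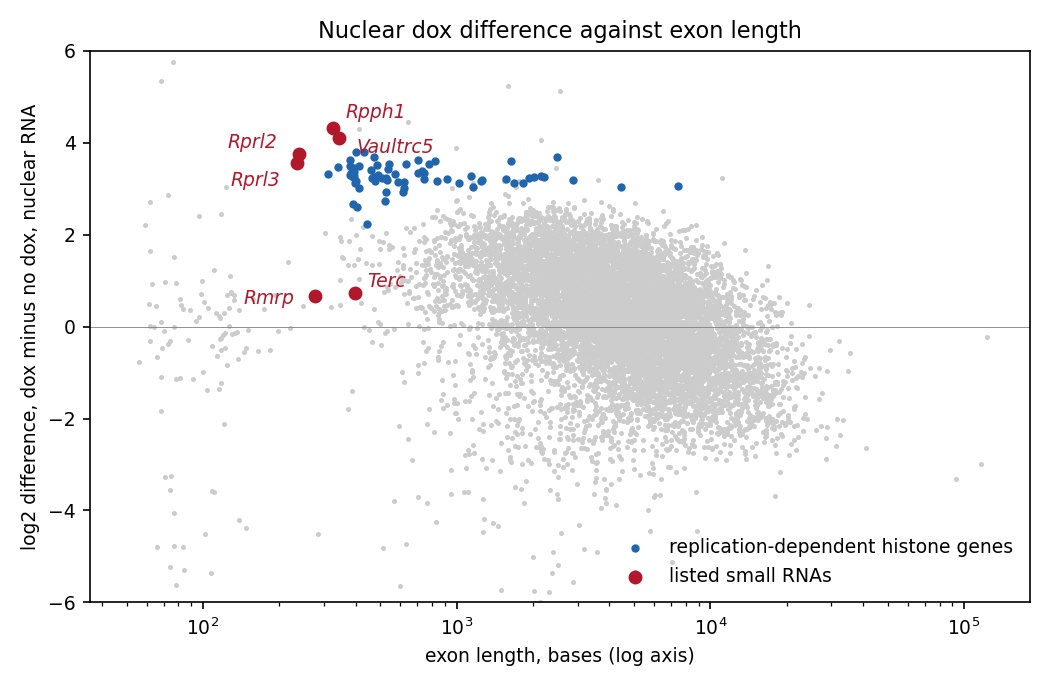
Log2 difference of dox minus no dox in nuclear RNA (vertical axis) against exon length in bases (horizontal axis, log scale) for tested genes (grey), replication-dependent histone genes (blue) and the 6 tested members (red). The 184 tested genes without a length are left out, and 52 tested genes past 6 on the log2 scale lie outside the axis. Rpph1 and Vaultrc5 stand above the histone genes and Rprl3 and Rprl2 level with the highest of them, while Rmrp and Terc sit near genes of like length.

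Other short structured RNAs of the table mostly had smaller differences than Rpph1. Small nucleolar and Cajal body RNAs, which guide modification of other RNAs, had a median log2 difference of -0.10 in nuclear RNA, with 15 of 75 called higher and 14 lower and a range of -11.10 to 11.15, in which 2 of 75 reached at least 3.5. In total RNA the median was -0.11, with 9 higher and 14 lower, and the highest was 3.37. Rnu12, a spliceosomal RNA of the minor spliceosome, had log2 differences of -0.09 (limma adjusted p = 0.774) and 0.26 (adjusted p = 0.381). Rnu11, its partner RNA, had -0.43 (adjusted p = 0.265) and fell by 0.94 in total RNA (adjusted p = 0.0241). Rn4.5s, a small rodent RNA made by RNA polymerase III, had 0.01 (adjusted p = 0.959) and 0.11 (adjusted p = 0.674). These 3 genes were named after their values were seen.

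The difference between fractions was small for RNase P RNA as deposited and larger with columns centred on the median. Rpph1 stood 1.09-fold higher in nuclear dox than in total dox and 1.17-fold higher in nuclear no dox than in total no dox, and Rmrp 1.23-fold and 1.11-fold. For Rpph1 the log2 difference of nuclear minus total was 0.12 with dox and 0.23 without dox as deposited, 0.00 and 0.62 with quantile normalization, and 0.49 and 0.55 with centring (SE 0.13). Over all tested genes the nuclear columns were lower, with a median log2 difference of -0.32 with dox and -0.31 without dox. Rprl3 stood 1.41-fold higher in nuclear than in total RNA without dox (log2 0.50, SE 0.18) and 1.04-fold with dox. Rprl2 and Vaultrc5 differed between fractions by less than 2 SE in both cases. Taken as nuclear minus total, the dox difference was -0.11 (SE 0.19) for Rpph1, -0.43 (SE 0.25) for Rprl3, 0.13 (SE 0.26) for Rprl2, 0.35 (SE 0.54) for Vaultrc5, 0.15 (SE 0.21) for Rmrp and 0.17 (SE 0.17) for Terc. None of the 6 exceeded 2 SE as deposited or with columns centred on the median, which does not show that the fractions were equal. With quantile normalization the same measure was -0.62 for Rpph1 and -0.67 for Rprl3, values that follow rank alone. Rpph1 ranked 2 in both dox columns, 4 in nuclear no dox and 5 in total no dox. Rprl3 ranked 4 in both dox columns, 12 in nuclear no dox and 20 in total no dox. The quantile values, with the 0.00 and 0.62 above, are thus steps between ranks. The SE comes from the values as deposited and does not measure such steps, so nothing is concluded from them.

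Genes next to the RNA genes were looked at for a difference that spans the locus, by the nearest protein-coding RefSeq gene, a choice made after member values were seen. Rpph1 (RefSeq span chr14:50807447-50807771) lies 125 bases from Parp2, which encodes a DNA damage responsive poly(ADP-ribose) polymerase. Parp2 had 5.97 RPKM in nuclear dox and 4.64 in nuclear no dox (log2 0.36, limma adjusted p = 0.0623), and 5.93 in total dox and 4.48 in total no dox (log2 0.41, adjusted p = 0.043). Its difference was thus small beside the 4.31 and 4.42 of Rpph1. Rmrp (chr4:43492785-43493059) lies 280 bases from Ccdc107, which had log2 differences of -0.24 (limma adjusted p = 0.456) and 0.04 (adjusted p = 0.902).

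Vaultrc5 lies 2102 bases from Zmat2, whose product is a zinc finger protein. Zmat2 rose by 0.85 on the log2 scale in nuclear RNA (limma adjusted p = 0.000356) and by 1.01 in total RNA (adjusted p = 0.0001), against 4.09 and 3.74 for Vaultrc5. Tbl1xr1, which encodes a corepressor subunit and lies 34775 bases from Rprl2, fell by 1.05 (limma adjusted p = 3.9e-05) and 0.84 (adjusted p = 0.000309).

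Messenger RNAs of the proteins that bind these RNAs were taken from lists of complexes and were not members, so they were tested. Over the 61 tested genes of 64 listed, which include RNA polymerase III genes, 27 rose and 11 fell with dox in nuclear RNA, and 29 rose and 9 fell in total RNA. Risen genes made up a share near that over all tested genes (43.1% nuclear, 41.5% total), and fallen genes a smaller share than over all tested genes (26.3% and 22.8%). Their median log2 difference was 0.40 in nuclear and 0.49 in total RNA, against 0.28 and 0.26 over all tested genes.

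Of the 10 tested protein genes of RNase P and RNase MRP, 6 rose and 0 fell in nuclear RNA, and 7 rose and 0 fell in total RNA. Over all tested genes 43.1% were higher and 26.3% lower in nuclear RNA, and 41.5% and 22.8% in total RNA, and the same background holds for the 7SK, Y RNA, vault, telomerase and polymerase lists. The median log2 difference was 0.89 in nuclear and 0.98 in total RNA. Quantile normalization left 6 and 8 higher, and centring on the median left 5 and 5 higher with 1 lower in total RNA. Rpp25l, whose product is closely related to the RNase P subunit Rpp25, had 25.5 RPKM in nuclear dox and 5.20 in nuclear no dox, and rose 4.90-fold (limma adjusted p = 8.63e-09). It rose by 1.81 on the log2 scale in total RNA (adjusted p = 1.25e-07). Rpp25 rose 3.40-fold in nuclear RNA (limma adjusted p = 1.57e-07) and 2.94-fold in total RNA (adjusted p = 7.42e-07).

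Pop5, a subunit near the catalytic RNA, had 8.2 RPKM in nuclear dox and 2.21 in nuclear no dox, and rose 3.71-fold (limma adjusted p = 3.06e-06), against 1.89-fold in total RNA (adjusted p = 0.00157). Pop7, the partner of Rpp25, rose 2.48-fold (adjusted p = 6.78e-05) and 2.27-fold (adjusted p = 0.000194). Pop4 rose 2.03-fold in nuclear RNA (adjusted p = 0.000442) and stood 1.34-fold higher in total RNA without passing (adjusted p = 0.0783). Pop1, the largest protein subunit, rose 1.47-fold and 1.68-fold, but its nuclear call ended with centring on the median (adjusted p = 0.0536) and both calls ended with quantile normalization (adjusted p = 0.872 and 0.0881). Rpp14 and Rpp30 passed in total RNA alone, by 2.04-fold and 1.70-fold, and centring ended both calls (adjusted p = 0.092 and 0.0656). Rpp21 had log2 differences of 0.69 and 1.35 with an SE of 0.68, and Rpp38 of 0.07 and -0.24, and neither passed. Rpp40 stayed below 1 RPKM in every column and was not tested.

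**Figure D4:**
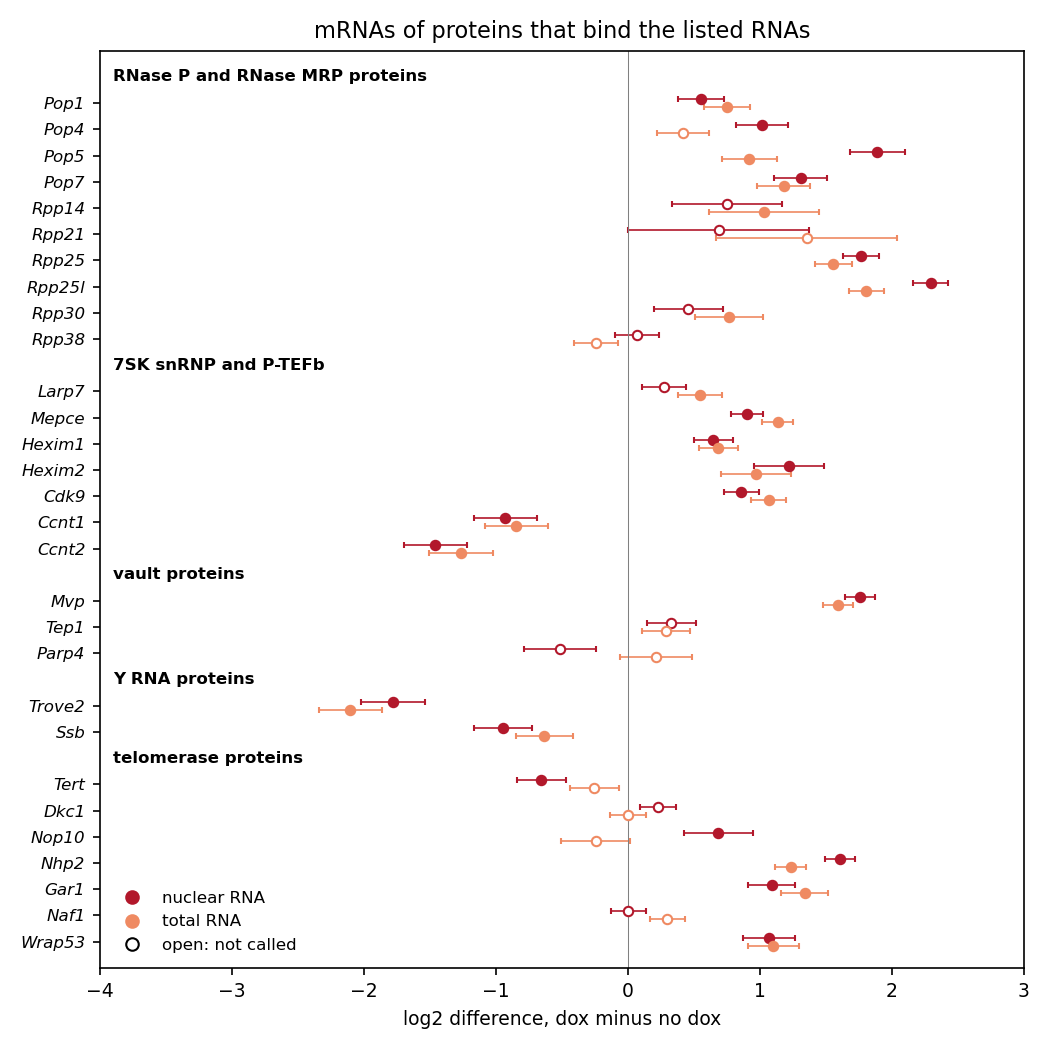
Log2 difference of dox minus no dox (horizontal axis, with limma SE) for messenger RNAs of proteins that bind the listed RNAs, in nuclear RNA (dark red) and total RNA (light red), grouped by complex. Filled points passed a Benjamini-Hochberg adjusted p below 0.05. All filled points of RNase P and RNase MRP proteins lie to the right of 0, both Y RNA proteins to the left, and the other complexes hold points on both sides.

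Genes of the 7SK particle and of P-TEFb, the kinase it holds, went in both directions. In nuclear RNA 4 of 7 rose and 2 fell, and in total RNA 5 rose and 2 fell. Hexim2 and Hexim1, the inhibitors that 7SK brings to P-TEFb, rose 2.33-fold and 1.57-fold in nuclear RNA (limma adjusted p = 0.00105 and 0.00158), and the Hexim1 call ended with quantile normalization (adjusted p = 0.258). In total RNA they rose 1.96-fold and 1.61-fold, and the Hexim1 call ended likewise (adjusted p = 0.119). Mepce, which caps 7SK, rose 1.87-fold and 2.20-fold, and Cdk9, the kinase subunit, rose 1.82-fold and 2.10-fold. Ccnt1 and Ccnt2, the cyclin subunits of the same kinase, fell 1.90-fold and 2.75-fold in nuclear RNA (adjusted p = 0.00356 and 0.00013), and 1.80-fold and 2.40-fold in total RNA. Larp7, which holds the 3′ end of 7SK, had a log2 difference of 0.27 in nuclear RNA (adjusted p = 0.164) and rose by 0.55 in total RNA, a call that centring ended (adjusted p = 0.0778).

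Both tested proteins of Y RNAs fell. Trove2, the Ro protein, had 0.466 RPKM in nuclear dox and 1.60 in nuclear no dox, and 0.636 in total dox and 2.73 in total no dox. It fell 3.43-fold in nuclear RNA (limma adjusted p = 2.13e-05) and 4.29-fold in total RNA (adjusted p = 6.1e-06). Ssb, the La protein that binds the ends of new RNA polymerase III transcripts, fell 1.92-fold (adjusted p = 0.00171) and 1.55-fold (adjusted p = 0.0213), and its total call ended without variance moderation (adjusted p = 0.0901) and without the low-value filter (adjusted p = 0.0575).

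Among vault proteins Mvp, the main shell protein, rose 3.38-fold in nuclear RNA (limma adjusted p = 3.17e-08) and 3.02-fold in total RNA (adjusted p = 1.28e-07). Tep1 had log2 differences of 0.33 and 0.29 and Parp4 of -0.52 and 0.21, and neither passed. Among 7 telomerase proteins 4 rose and 1 fell in nuclear RNA, and 3 rose and 0 fell in total RNA. Nhp2, Gar1 and Wrap53, which assemble on Terc, rose in both fractions, by 3.05-fold, 2.13-fold and 2.10-fold in nuclear and 2.35-fold, 2.53-fold and 2.15-fold in total RNA. Nop10 rose 1.61-fold in nuclear RNA (limma adjusted p = 0.03), a call that centring ended (adjusted p = 0.0787), and had a log2 difference of -0.24 in total RNA. Tert, the reverse transcriptase, fell 1.57-fold in nuclear RNA (adjusted p = 0.00736), with a log2 difference of -0.25 in total RNA (adjusted p = 0.256). Dkc1 had log2 differences of 0.23 and 0.00 and Naf1 of 0.00 and 0.30, and neither passed. With quantile normalization the telomerase list had 3 higher and 3 lower in nuclear RNA and 3 higher and 2 lower in total RNA.

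RNA polymerase III makes most of the listed RNAs, and genes of the enzyme and its factors were called in both directions. Of 13 subunit genes 5 rose and 1 fell in nuclear RNA, and 5 rose and 0 fell in total RNA. Polr1c, a subunit shared with RNA polymerase I, rose 3.42-fold (limma adjusted p = 4.26e-08) and 3.08-fold (adjusted p = 1.57e-07), and Polr3gl, a variant subunit, fell 2.03-fold in nuclear RNA (adjusted p = 0.002). Of 19 factor genes 7 rose and 5 fell in nuclear RNA, and 8 rose and 5 fell in total RNA. Maf1, a repressor of the polymerase, rose 3.35-fold in nuclear RNA (adjusted p = 1.64e-07), the largest rise of that list there. Snapc2, a subunit of the complex that binds promoters of the Rpph1 and Rmrp kind, rose 3.24-fold in total RNA (adjusted p = 1.54e-06).

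Snapc5, another subunit of that promoter complex, had the largest fall of the factor list in nuclear RNA, 4.69-fold (limma adjusted p = 0.00178). It was low throughout, at 0.244 RPKM in nuclear dox and 1.15 in nuclear no dox. In total RNA the largest fall was that of Pou2f1, an octamer-binding activator of such promoters, by 3.45-fold (adjusted p = 1.89e-06). Under the other scalings the factor list had 5 higher and 6 lower (quantile) or 7 and 6 (centred) in nuclear RNA, and 6 and 4 or 7 and 7 in total RNA.

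Between fractions, limma called 5.84% of all tested genes higher in nuclear than in total RNA with dox and 34.8% lower, and 4.01% higher without dox and 34.7% lower. Higher genes made up 14.4% of these calls with dox and 10.4% without, and 45.7% and 50.7% after quantile normalization or 54.8% and 42.4% after centring, so the excess of lower calls depends on the scaling. Of the 61 partner and polymerase genes 2 were higher and 11 lower with dox, and 0 higher and 9 lower without. The balance of this list turned with the scaling: quantile normalization gave 4 higher and 2 lower with dox and 13 and 3 without, and centring gave 11 higher and 1 lower with dox and 8 and 2 without. Parp4, the vault poly(ADP-ribose) polymerase, was 4.49-fold lower in nuclear RNA with dox (limma adjusted p = 6.29e-05) and 2.71-fold lower without (adjusted p = 0.00114). Among called genes of the polymerase lists, the largest falls with dox were those of Polr3d (1.33-fold, adjusted p = 0.0425) and Snapc1 (1.62-fold, adjusted p = 0.0428). Without dox they were those of Polr1d (1.35-fold, adjusted p = 0.0212) and Gtf3c1 (1.49-fold, adjusted p = 0.00231). Some genes that were not called had larger falls, such as Snapc5 with dox (2.32-fold, adjusted p = 0.0778). All 4 of these calls ended with quantile normalization and with centring, while those of Parp4 passed under both (adjusted p between 0.000382 and 0.00908). For the difference of the dox effect between fractions, limma called 0% of genes (0 of 10197, with 1338 at an unadjusted p below 0.05, and 3 called without variance moderation), and therefore 0 of the 61.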

How the data were processed

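Members and gene lists were chosen with earlier results of these data known. The authors deposited log2 group means, log2(RPKM + 0.001), per the file headers, with ANOVA p-values and q-values, a ratio of group means and a signed fold change, read here as a score. Per the submitters' processing notes, bcl2fastq 2.17.1, TopHat and mm10 were used, and per the file headers Partek 6.6. The annotation, read counting, strand and read length are not given in the sources used here.

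The table gives no library on its own, so the tests planned on single libraries or counts were replaced. Residual SDs came from the authors' p-values: with 6 residual degrees of freedom both p-values of a gene gave the same SD within 0.001 for 100% of 16338 genes (10.7% with 5, 12.8% with 7), hence 10 libraries. Which 2 of the 12 stayed out is unknown. The number per group came from genes above 0 in 1 group alone. Depths came from RPKM steps of 1 read, and reads of Rprl1 and Vaultrc5 from whole numbers that gave the means within 0.0003 on the log2 scale.

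limma 3.58.1 (R 4.3.3) shrank the recovered variances towards a trend over mean level and tested 5 contrasts over the 10197 genes of at least 1 RPKM in 1 group. Calls are Benjamini-Hochberg adjusted p below 0.05. The procedure was tested on simulated data. RPKM values are back-transformed means, thus geometric, and folds are on the log2(RPKM + 0.001) scale. Named genes are all members, all genes of lists of 12 or fewer, the largest call in each direction of longer lists, and the 5 nearest genes to Rpph1 and Rmrp; likewise for Rn7sk, which was not analysed here. Of the genes this rule names, 1 is not reported here. Alternatives were other filters, no moderation, quantile normalization, centring, a pseudocount of 1 and genes of like length.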

Additional observations from a re-analysis of the deposited data

How the results depend on the processing

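Rpph1 stayed higher with dox in every setting run: log2 3.25 in nuclear and 3.86 in total RNA with quantile normalization, 4.17 and 4.23 with columns centred on the median, and 3.10 and 3.67 less the median of genes of like length. The 8 values of Rpph1, Rprl3, Rprl2 and Vaultrc5 ran between 1.80 and 4.09 with quantile normalization and between 2.60 and 4.42 with a pseudocount of 1. Against the median of genes of like length Rmrp differed by less than 2 SE (-0.208 and -0.003). Terc lay below that median (-0.601 and -0.22, the latter within 2 SE). Quantile normalization gave -1.68 in both fractions for Rmrp, and -1.42 and -1.12 for Terc. As that setting follows rank, its values at the top of the table, also those of Rpph1 and Rprl3, are steps between ranks. For Rmrp this was the step between ranks 2 and 3. Why ranks changed was not tested. With at least 5 RPKM, which tests fewer genes, calls numbered 4092 in nuclear and 3968 in total RNA (7073 and 6556 as reported), 2606 between fractions without dox and 2330 with dox (3948 and 4145), and 25 partner genes in nuclear RNA (38). Quantile normalization left 2003 calls between fractions with dox. For the difference of the dox effect, calls numbered 6 with no low-value filter, 121 at 5 RPKM (109 higher, 12 lower), 3 unmoderated, 23 with quantile normalization and 6 centred, against 0.

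No paired analysis was possible because the deposited columns are means over libraries, so the replicate block and leaving out single libraries were not run. Rprl1 and Vaultrc5 rest on few reads in the no-dox libraries, and all values depend on 2 or 3 libraries a group. Depth followed the dox label, and depth and label cannot be told apart.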
